A study of Homo sapiens with 3 samples.

Results

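The genes of the translation initiation and elongation factors were examined in 3 RNA-seq libraries of 22Rv1 WT cells. The members were the protein-coding rows whose Ensembl identifier mapped to a symbol starting with EIF1, EIF2, EIF3, EIF4, EIF5, EIF6, EEF1, EEF2 or ETF1, with pseudogenes left out. This rule used names only, and it took 71 of 27024 counted genes. A further 5 rows with these prefixes were antisense, divergent or pseudogene rows and were left out. 22Rv1 is an established cell line from a human prostate carcinoma. The WT cells keep the enhancer that the study deleted in other cells, and the labels name no treatment. The study's methods describe 3 control clones and its results describe biological replicates, so it is not known whether the SD over the libraries reflects separate clones or separate cultures. The values are read counts per gene that the authors divided by 1 size factor per library, called normalized counts here.

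The depth was 38252744 reads in replicate 1, 35675670 in replicate 2 and 38629080 in replicate 3, recovered from the steps of the normalized counts. Luminal prostate markers were present, with HOXB13, a prostate homeobox factor, at 9956 ± 200.3 normalized counts (SD, n = 3). KLK3, which encodes prostate-specific antigen, stood at 341 ± 32.9 normalized counts. The leukocyte marker PTPRC was at 0.8, 0 and 0.8 normalized counts in replicates 1, 2 and 3, and the fibroblast marker COL1A1 was at 261 ± 17.2.

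Translation of an mRNA begins when initiation factors bring the small ribosomal subunit, loaded with initiator tRNA, to the capped start of the message and scan it to a start codon. Elongation factors then deliver aminoacyl-tRNA and move the ribosome along, and a release factor ends the chain at a stop codon. Initiation is controlled chiefly at the binding of the cap by eIF4E and at the supply of initiator tRNA by eIF2. The mRNAs of many ribosomal proteins and translation factors begin with a C followed by a run of pyrimidines, known as a terminal oligopyrimidine start, through which mTOR signalling controls their translation.

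Of the 71 members, 68 were expressed, that is, at a CPM (reads scaled to a common library total) of 1 or more in all 3 libraries. This was 95.8% of the members, beside 63.8% of all protein-coding genes counted. The other 3 were EIF4A1 and EEF1AKMT4-ECE2, listed at 0 in each library, and EIF4E1B, an eIF4E paralog, with 51, 56 and 33 reads. All canonical exon bases of EIF4A1 and of EEF1AKMT4-ECE2 are shared on the same strand with other gene models, so these levels are uncertain. The level of EIF1AY is not given, and values are given for the other 70 members. The members took 2.42%, 2.39% and 2.45% of all reads in replicates 1, 2 and 3. Elongation factors held the largest part, with 1.37%, 1.35% and 1.40% of all reads over 10 genes. The cap-binding, scaffold and helicase factors followed with 0.404 ± 0.0025% (SD, n = 3) over 12 genes, a share that counts EIF4A1 at 0. The 14 eIF3 genes held 0.286 ± 0.0060% of all reads. The median expressed member stood at 1257 normalized counts per kb of its canonical transcript, against 332 for all expressed protein-coding genes, and 53 of the 67 expressed members with values lay above the latter.

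**Figure D1:**
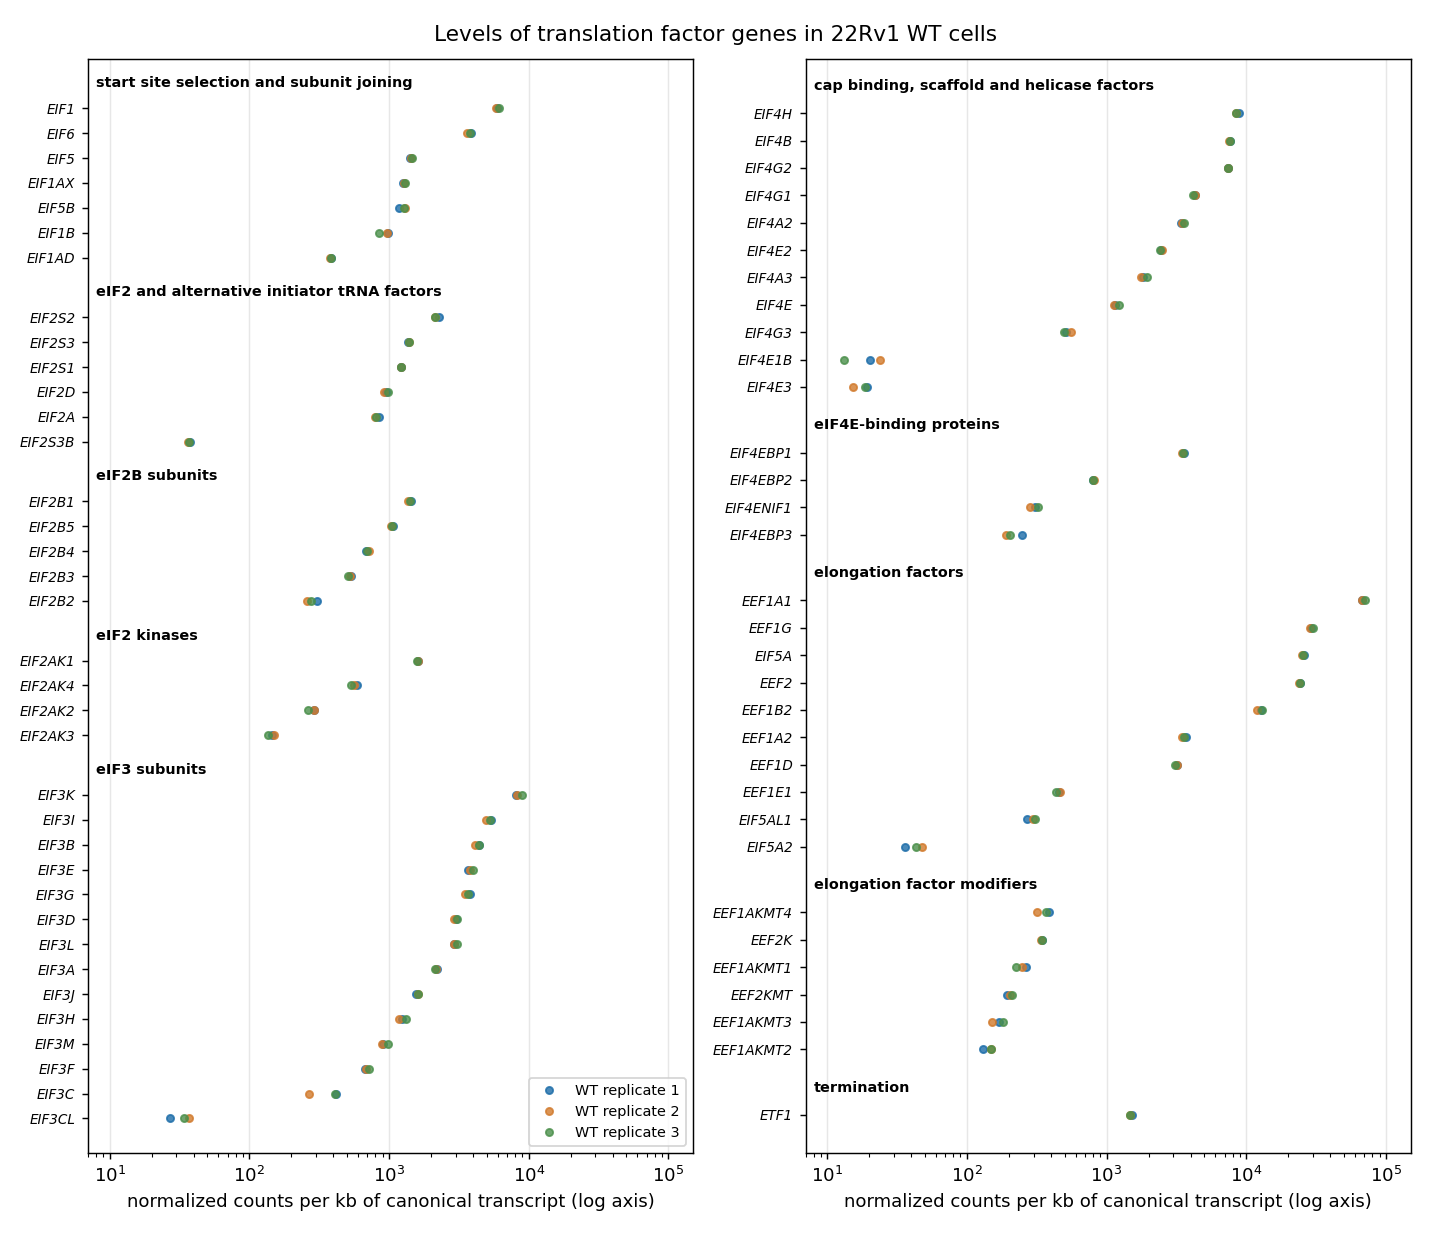
Each point is 1 WT library, the horizontal axis gives normalized counts per kb of canonical transcript on a log scale, and genes are grouped by role and ordered by level. EEF1A1 stands furthest to the right at about 68668 per kb, EIF4E3 and EIF4E1B stand furthest to the left, and the 3 libraries lie close together for most genes, with EIF3C in replicate 2 apart from replicates 1 and 3.

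The start of the transcript was read for the members because these messages are known for a pyrimidine run there. In the RefSeq promoter table on GRCh38.p14, 57 of the 71 members had an entry, with 75 starts in all. A start base C followed by at least 4 pyrimidines stood at 13 of the 75 starts, or 17.3%, beside 4.07% of the 35116 starts in the whole table. The letters searched were a C at the first transcribed base and then only C or T, read on the strand of the gene. The 13 genes were EEF1A1, EEF1B2, EEF2, EIF2A, EIF2D, EIF2S3, EIF2S3B, EIF3D, EIF3F, EIF3K, EIF3M, EIF4A2 and EIF4B. For 6 of these and for EEF1G, which lacks the run at its annotated start, 5 bases before the start and 25 from it are shown, with the run that begins at the start in capitals.
EEF1A1, chr6:73521008-73521037, minus strand: acgttCTTTTTCgcaacgggtttgccgcca
EEF2, chr19:3985439-3985468, minus strand: gcgttCTCTTCCgccgtcgtcgccgccatc
EEF1B2, chr2:206159890-206159919, plus strand: cgggtCCTTTTTCCTCTCTTCagcgtgggg
EIF3D, chr22:36529142-36529171, minus strand: gtttcCTCTTTTCCTggtttctcaagagtg
EIF3F, chr11:7987332-7987361, plus strand: gcctcCTTCTTTCTCgacaagatggccaca
EIF4B, chr12:53006451-53006480, plus strand: cgggtCTTTTgcgttctctttccctctccc
EEF1G, chr11:62573867-62573896, minus strand: ggcttactttgcggcagcgccgagaacccc
The runs shown were between 5 bases long, in EIF4B, and 16 bases long, in EEF1B2. In EEF1G the annotated start base is an A that stands directly before a C and 3 T, a run of 4 bases and below the minimum of 5. For the members as a set, the count depended on where a start was placed. With a run allowed to begin anywhere within 5 bases of the start, 33.3% of the member starts and 21.1% of all starts held one. At the first base of the GENCODE canonical transcript, 21 of 71 members held the run, or 29.6%, beside 4.69% of protein-coding genes. Of the 21, 13 also had it at the RefSeq start and 7 had no RefSeq promoter entry, among them EEF1A2, EIF3A, EIF3CL and EIF3L.

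Among the 53 expressed members with a promoter entry and values, the 13 with the run had a median of 2997 normalized counts per kb, and the 40 without it had a median of 991. The corresponding medians over all expressed protein-coding genes were 448 for 754 genes with the run and 333 for 9256 genes without it. The ranges overlapped widely, since the members with the run reached down to EIF2S3B at 36.8 per kb and those without it reached up to EEF1G at 29367. A start read from an annotation is a description, and the start used in 22Rv1 cells was not measured.

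The elongation factors were the most abundant members. EEF1A1, which carries aminoacyl-tRNA to the ribosome, was listed at 237932, 236306 and 249247 normalized counts in replicates 1, 2 and 3, the highest level of any counted gene. It alone made up 0.797 ± 0.020% of all reads and 32.9 ± 0.51% of the reads on the members. Per kb it stood at 68668 ± 2007 and ranked 8 among protein-coding genes, with a canonical transcript of 3512 bases.

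EEF2, the factor that moves the ribosome along the message, was at 77153, 74845 and 76042 normalized counts, and ranked 10 among all genes. EEF1G, a subunit of the exchange factor that recharges eEF1A with GTP, was at 42386, 41635 and 43373. EIF5A, which helps the ribosome through stretches such as consecutive prolines, was at 32667, 31666 and 32018. In these 3 genes, replicate 2 was the lowest library each time, by at most 1.042-fold against the highest. EEF1G shares 99.5% of its canonical exon bases, on the same strand, with a gene model that has no row in the files, and a near-identical copy matches 90.9% of its transcript at 99.2% identity, also without a row, so its level is uncertain.

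By level per kb, EEF1G at 29367 ± 603, EIF5A at 25409 ± 402, EEF2 at 24070 ± 366 and EEF1B2 at 12591 ± 520 followed EEF1A1, and none of these 5 overlapped its neighbour over the 3 libraries on this scale. The order after EEF1A1 depended on the length used, since EEF2 stood second per kb of all annotated exons, at 18904 against 16091 for EEF1G and 11962 for EIF5A, and also without length. Members 6 to 10 in this order were initiation factors. EIF4H, a partner of the helicase eIF4A, stood at 8590 ± 232 per kb and EIF3K, a small eIF3 subunit, at 8452 ± 445, and the libraries of these 2 genes overlapped. EIF4B at 7600 ± 36.2, EIF4G2 at 7424 ± 28.8 and EIF1 at 5991 ± 132 came next without overlap per kb of canonical transcript. Per kb of all annotated exons EIF4B stood at 4862, EIF1 at 3866, EIF4H at 3792, EIF4G2 at 3320 and EIF3K at 2332. The order among these 5 was thus not fixed either. On that scale EIF3K also fell below EIF4EBP1 at 3319, EIF4G1 at 2622 and EIF6 at 2463, so places 6 to 10 did not keep the same genes. The first 4 of the 10 were among the 100 protein-coding genes highest per kb.

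The exchange factor eEF1B is made of EEF1B2, EEF1D and EEF1G, and their messages were not at equal levels. EEF1B2, a nucleotide exchange subunit, was at 10354, 9693 and 10474 normalized counts, and 82.7% of its transcript matches EEF1B2P3, a copy without a row, at 99.1% identity, so its level is uncertain too. EEF1D, the other exchange subunit, was at 6648, 6669 and 6445. Per kb, EEF1D stood at 3152, which was 9.32-fold below EEF1G. The gap was 6.45-fold without length and 22.9-fold when the length was that of all annotated exons together. EEF1B2 exceeded EEF1D by 2.00 ± 0.08 on the log2 scale per kb, by 0.63 without length and by 2.92 per kb of all annotated exons. EEF1E1, a small protein of the multi-tRNA synthetase complex, was far lower at 452 ± 13.5 per kb. It shares 37.5% of its canonical exon bases on the same strand with EEF1E1-BLOC1S5, which has no row, so its level is uncertain.

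EEF1A1 and EEF1A2 encode closely related proteins, with EEF1A2 known as the form of muscle and neurons and as a gene raised in some tumours. Their coding sequences matched at 78.5% of aligned bases, with 299 mismatches and no identical stretch longer than 20 bases. The first 90 coding bases are shown because they hold the differences by which reads of these paralogs can be told apart. Capitals mark the 17 positions at which they differ, and the sequences come from GENCODE transcripts on GRCh37.
EEF1A1, gene at chr6:74199031-74235310, minus strand: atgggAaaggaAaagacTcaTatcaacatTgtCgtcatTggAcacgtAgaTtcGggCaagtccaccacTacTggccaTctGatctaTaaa
EEF1A2, gene at chr20:62119366-62130592, minus strand: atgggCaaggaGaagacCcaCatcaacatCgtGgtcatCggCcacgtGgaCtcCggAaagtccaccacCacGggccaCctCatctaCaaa
EEF1A2 was listed at 6542, 6131 and 6388 normalized counts, and all 3 libraries lay far below those of EEF1A1. Per kb it stood at 3584 ± 117, in the upper part of the expressed protein-coding genes. EEF1A1 exceeded it by 4.20, 4.28 and 4.30 on the log2 scale per kb, a mean of 4.26 ± 0.05 or 19.2-fold (38.0-fold without length). EEF1A2 thus made up 2.57 ± 0.095% of the reads on the pair and 4.96 ± 0.18% of its level per kb. The sign was the same in 3 of 3 libraries, and the exact two-sided sign-flip permutation test gave p = 0.25, the smallest value that 3 libraries allow for this and every other pair, so no pair could pass 0.05.

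EIF5A has a paralog, EIF5A2, known for raised copy number in some carcinomas, and a copy without introns, EIF5AL1. EIF5AL1 matched EIF5A at 98.9% of coding bases, with 5 mismatches and an identical stretch of 192 bases, and EIF5A2 matched it at 72.1%. The first 90 coding bases show this difference, with capitals at the 24 positions where the 3 genes are not all alike.
EIF5A, gene at chr17:7210318-7215782, plus strand: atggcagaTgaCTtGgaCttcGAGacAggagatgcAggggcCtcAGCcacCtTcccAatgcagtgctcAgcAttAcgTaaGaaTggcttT
EIF5AL1, gene at chr10:81272289-81276196, plus strand: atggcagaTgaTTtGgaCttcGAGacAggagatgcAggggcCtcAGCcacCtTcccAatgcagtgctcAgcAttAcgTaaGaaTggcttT
EIF5A2, gene at chr3:170606207-170626433, minus strand: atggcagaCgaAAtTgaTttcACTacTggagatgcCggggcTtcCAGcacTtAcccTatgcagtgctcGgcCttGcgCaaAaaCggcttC
EIF5A2 was at 200.7, 265.7 and 238.5 normalized counts and EIF5AL1 at 1052, 1167 and 1200. EIF5A exceeded EIF5A2 by 9.23 ± 0.23 on the log2 scale per kb, or 602-fold, the widest gap among the 20 pairs with values. The size of this gap depended on the length used, at 137.6-fold without length and 284-fold per kb of all annotated exons. EIF5A2 made up 0.727 ± 0.11% of the reads on EIF5A and EIF5A2. The log2 ratio of EIF5A to EIF5AL1 was 6.45 ± 0.12 per kb, 4.82 without length and 5.36 per kb of all annotated exons. Reads in the identical stretches of EIF5A and EIF5AL1 cannot be told apart, so the level of EIF5AL1 is uncertain.

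The 6 expressed genes for the kinase and methyltransferases of elongation factors lay between 143 and 357 normalized counts per kb, beside the median of 332 for expressed protein-coding genes. EEF2K, the kinase that inhibits eEF2, stood at 345 ± 3.84 normalized counts per kb, and EEF2KMT, a lysine methyltransferase of eEF2, at 203 ± 7.5. The eEF1A lysine methyltransferases ran from EEF1AKMT2 at 143 ± 10.1 per kb to EEF1AKMT4 at 357 ± 36.5. EEF1AKMT2, among the 5 lowest expressed members, was at 472.5, 535.7 and 534.6 normalized counts. EEF1AKMT4 shares 49.2% of its canonical exon bases with the read-through row EEF1AKMT4-ECE2, which is listed at 0, so its level is uncertain.

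Among the factors that choose the start codon and join the subunits, EIF1 led. EIF1, which holds the scanning ribosome open until a start codon is found, was at 13945, 13735 and 14344 normalized counts. Its paralog EIF1B was at 967, 952.9 and 833.7, lowest in replicate 3. The log2 ratio per kb was 2.69 ± 0.15, or 6.46-fold, against 15.3-fold without length. EIF6, which keeps the ribosomal subunits apart, stood at 3772 ± 118 per kb. It shares 26.6% of its canonical exon bases on the same strand with a gene model without a row, so its level is uncertain. EIF5, the GTPase activator of eIF2, stood at 1442 ± 26.3, EIF1AX, a scanning factor, at 1285 ± 20.2, and EIF5B, the subunit-joining GTPase, at 1257 ± 68.9. EIF1AD, an eIF1A domain protein, was the lowest of those given at 384 ± 4.64.

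The 3 subunits of eIF2, which brings the initiator tRNA, were close to each other. EIF2S1, the subunit whose phosphorylation slows initiation, was at 5094, 5069 and 5099 normalized counts, the smallest relative spread of the expressed members with values. Per kb the eIF2 subunits ran from EIF2S1 at 1225 to EIF2S2 at 2167, a 1.77-fold range. EIF2S3, the GTP-binding subunit, was at 4691, 4803 and 4836 normalized counts, and its near copy EIF2S3B at 98.8, 95.6 and 96.8. The log2 ratio of EIF2S3 to EIF2S3B was 5.23 ± 0.04 per kb, or 37.5-fold. Their coding sequences matched at 98.2% of bases with an identical stretch of 205, so reads of EIF2S3 could be listed under EIF2S3B, and the level of EIF2S3B is uncertain. EIF2A and EIF2D, proteins named for delivering initiator tRNA outside eIF2, stood at 816 ± 27.6 and 948 ± 28.9 per kb.

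eIF2B recharges eIF2 with GTP, and its 5 subunits ran from EIF2B2 at 280 to EIF2B1 at 1402 normalized counts per kb, a 5.01-fold range. EIF2B5, the catalytic subunit, stood at 1053 ± 24.6, EIF2B4 at 702 ± 15.7 and EIF2B3 at 521 ± 11.7. EIF2B2 had the largest relative spread of the complex, with the highest library 1.18-fold above the lowest.

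The 4 eIF2 kinases answer different stresses, and all were expressed. EIF2AK1, the heme-regulated kinase HRI, was at 7064, 7082 and 6978 normalized counts. EIF2AK4, the amino acid sensor GCN2, was at 3258, 3091 and 2945, and EIF2AK2, the double-stranded RNA sensor PKR, at 2884, 2914 and 2621. EIF2AK3, the endoplasmic reticulum stress kinase PERK, was at 659.7, 679.5 and 621.2. Per kb the order was EIF2AK1, EIF2AK4, EIF2AK2 and EIF2AK3, and the levels did not overlap over the libraries on this scale. Per kb of all annotated exons EIF2AK4 and EIF2AK2 were nearly level, at 258 and 254. EIF2AK1 exceeded EIF2AK4 by 1.51 ± 0.06, EIF2AK2 by 2.51 ± 0.07 and EIF2AK3 by 3.47 ± 0.05 on the log2 scale per kb. Without length the ratio to EIF2AK2 was 1.33, and per kb of all annotated exons the ratios to EIF2AK4 and EIF2AK3 were 2.31 and 5.34.

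eIF3 is the large scaffold that binds the small subunit. Leaving out EIF3C and EIF3CL, the other 12 subunits ran from EIF3F at 693 ± 24.4 to EIF3K at 8452 ± 445 normalized counts per kb, a 12.2-fold range. The same 12 genes spanned 3.65-fold without division by length and 11.4-fold per kb of all annotated exons. EIF3K was at 6249, 6416 and 6910 normalized counts. EIF3I, a WD-repeat subunit, stood at 5201 ± 206 per kb, EIF3B, a core subunit, at 4297 ± 156, and EIF3A, the largest subunit, at 2168 ± 33.1. The cap-binding subunit EIF3D stood at 2997 ± 53.9 per kb. EIF3E and EIF3H, at 3835 ± 153 and 1244 ± 64.5 per kb, and EIF3M, at 922 ± 46.6, belong to the same structural core as EIF3F.

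EIF3C, a core subunit, stood apart from the rest in its spread. It was listed at 1211, 778.5 and 1190 normalized counts, from 1533, 920 and 1512 reads. Replicate 2 was low and replicates 1 and 3 were close, with the highest library 1.56-fold above the lowest. EIF3CL, a copy of the gene on the same chromosome, was at 79, 108.3 and 99.2, highest in replicate 2. The coding sequences of EIF3C and EIF3CL hold no mismatch over the aligned bases, and their first 90 coding bases are shown because they are letter for letter the same.
EIF3C, gene at chr16:28699879-28747048, plus strand: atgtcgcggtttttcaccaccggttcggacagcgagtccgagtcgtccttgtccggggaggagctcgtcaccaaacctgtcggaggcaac
EIF3CL, gene at chr16:28390900-28415162, minus strand: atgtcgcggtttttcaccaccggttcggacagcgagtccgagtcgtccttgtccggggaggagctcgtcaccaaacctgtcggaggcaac
The longest identical coding stretch was 1872 bases, so a read from it has no single place, and the levels of both genes are uncertain. The log2 ratio of EIF3C to EIF3CL per kb was 3.94, 2.85 and 3.59 in replicates 1, 2 and 3, a mean of 3.46 ± 0.56, the largest SD of the 20 pairs, and 2.27 per kb of all annotated exons. EIF3C was low, at 364 ± 83.9 per kb against 693 or more for the other 12 subunits, and the part of the shared sequence in this level and in its spread was not tested.

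The cap-binding complex joins eIF4E to the scaffold eIF4G and the helicase eIF4A. EIF4E, the cap-binding protein, was at 2809, 2764 and 2979 normalized counts. EIF4E2, which binds caps without starting ordinary translation, was at 2354, 2411 and 2337. On the log2 scale per kb EIF4E stood below EIF4E2 by a ratio of -1.06 ± 0.08. This order turned to 0.27 without division by length and to 1.47 per kb of all annotated exons, so which of these genes is higher cannot be said from these counts. EIF4E3, another cap-binding paralog, was at 192, 152.3 and 185.8 normalized counts and was the lowest expressed member per kb at 17.7 ± 2.14. EIF4E1B, known from oocytes, was at 40.3, 47.4 and 26 normalized counts. EIF4E exceeded EIF4E3 by 6.06 ± 0.16 and EIF4E1B by 5.99 ± 0.51 on the log2 scale per kb. The ratio to EIF4E3 was 4.02 without length and 5.14 per kb of all annotated exons.

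The scaffolds were not at equal levels, with EIF4G1 at 4246 ± 49.8, EIF4G2 at 7424 ± 28.8 and EIF4G3 at 519 ± 29.4 normalized counts per kb. EIF4G1, the main scaffold, was at 23110, 23105 and 22641 normalized counts. EIF4G2, a scaffold that lacks the eIF4E-binding part, was at 28241, 28042 and 28220, and EIF4G3, a second full scaffold, at 3260, 3531 and 3170. EIF4G1 stood below EIF4G2 by a log2 ratio of -0.81 ± 0.02 per kb, or 1.75-fold, and above EIF4G3 by 3.03 ± 0.07. The first of these kept its sign without length, at -0.30, and per kb of all annotated exons, at -0.34.

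EIF4A1, the main helicase of initiation, was listed at 0 in all 3 libraries, at chr17:7476142-7482324 on the plus strand. All of its canonical exon bases are shared on the same strand with the read-through gene SENP3-EIF4A1 and with 1 further gene model, neither of which has a row in the files. Over all protein-coding genes, 30.5% of the 295 genes that share at least 95% of these bases were listed at 0, beside 16.8% of the 16605 that share none. The part of this overlap in the zero was not tested, and no ratio was formed for the 2 pairs with EIF4A1. EIF4A2, its close paralog, was at 6464, 6526 and 6800 normalized counts, and EIF4A3, a helicase of the exon junction complex, at 4614, 4432 and 4921. EIF4A2 exceeded EIF4A3 by 0.92 ± 0.05 on the log2 scale per kb, or 1.90-fold. The log2 ratio was 0.50 without length and 0.42 per kb of all annotated exons.

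EIF4B and EIF4H, which stimulate the helicase, were nearly level. EIF4B was at 29340, 29152 and 29426 normalized counts and EIF4H at 22694, 21582 and 21777. The log2 ratio per kb of EIF4B to EIF4H was -0.18 ± 0.04, and it turned to 0.41 without length and to 0.36 per kb of all annotated exons. Which of these genes is higher thus depends on the length used.

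The eIF4E-binding proteins hold eIF4E back until mTOR phosphorylates them. EIF4EBP1 was at 2958, 2889 and 2915 normalized counts, EIF4EBP2 at 5949, 6075 and 5956, and EIF4EBP3 at 171.4, 132 and 141.7. Per kb EIF4EBP1 exceeded EIF4EBP2 by 2.14 ± 0.03 and EIF4EBP3 by 4.05 ± 0.18 on the log2 scale. The first ratio turned to -1.04 without length and stayed at 2.05 per kb of all annotated exons. EIF4EBP2 exceeded EIF4EBP3 by 1.91 ± 0.21 on the log2 scale per kb and by 5.34 without length, and EIF4EBP3 shares 73.2% of its canonical exon bases with the read-through row ANKHD1-EIF4EBP3, so its level is uncertain. EIF4ENIF1, which shuttles eIF4E into the nucleus, stood at 304 ± 21.8 per kb, and ETF1, the release factor that reads stop codons, at 1484, from 5463 ± 110.4 normalized counts.

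**Figure D2:**
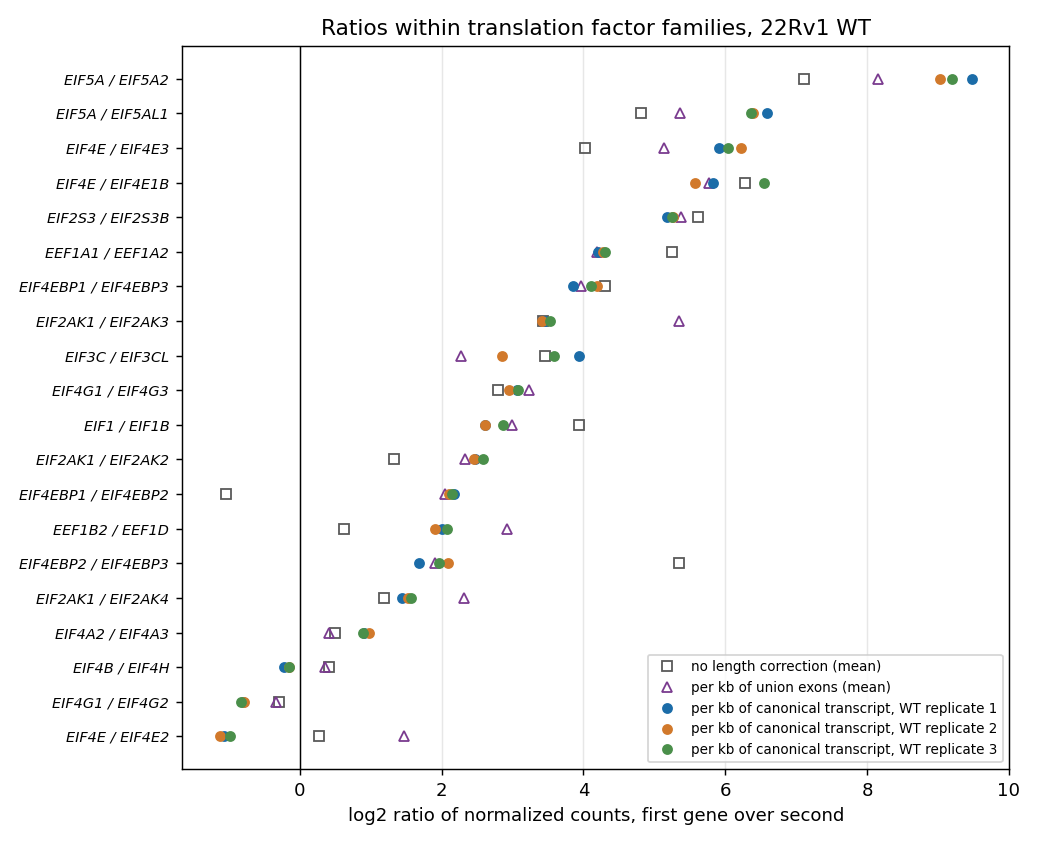
The horizontal axis gives the log2 ratio of the first gene to the second for 20 pairs, with filled circles for each WT library per kb of canonical transcript, open squares for the mean without length and open triangles for the mean per kb of all annotated exons. The 3 circles lie on 1 side of 0 in every pair, the widest set belongs to EIF3C / EIF3CL, and in EIF4E / EIF4E2, EIF4EBP1 / EIF4EBP2 and EIF4B / EIF4H an open symbol lies on the other side of 0.

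In all 20 pairs with values the sign was the same in 3 of 3 libraries, and the mean log2 ratio was more than 3 SD from 0. With exact p = 0.25 for each, also after adjustment over the 20 pairs, none passed the threshold, and none could. The sign turned in 3 pairs without length and in 2 pairs with the length of all annotated exons.

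With a single condition, the question left for a test across genes was which members spread more between the WT libraries than reads do by sampling. By a chi-square test of the reads against TMM library sizes, with Benjamini-Hochberg adjustment over the 14646 genes that averaged 10 reads or more, 38 of the 69 members tested differed between libraries, where the background was 41.9% of all genes tested. The members called were 11 of 14 eIF3 genes, 8 of 10 elongation factors, 7 of the 11 cap-binding, scaffold and helicase factors tested, 4 of 8 start-site factors, 2 of 6 eIF2 and initiator tRNA factors, 2 of 4 eIF2 kinases, 2 of the 6 elongation factor modifiers tested, 1 of 5 eIF2B subunits, 1 of 4 eIF4E-binding proteins and not ETF1. This test passes small differences in deeply counted genes, such as the 1.05-fold range of EEF1A1. Over all genes 6141 were called in the same way.

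The spread that genes of the same level show was then added, as the trended dispersion of edgeR. This left 1 member, EIF3C, with an adjusted p of 0.00024 in the chi-square test with that dispersion, where the background was 0.416%, or 61 of the 14646 genes. The call was lost without replicate 2, in which EIF3C was low, and stayed without replicate 1 or 3. At an unadjusted p under 0.05, 43 members passed against sampling and 1 with the dispersion added. The share of all genes at this unadjusted threshold is not given, so these counts have no background to be set against.

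In size, the differences between libraries were small. The median coefficient of variation was 3.13% over the members tested and 5.56% over all genes tested, and with a mean of at least 1000 reads it was 2.82% over 56 members and 3.57% over 7572 genes. The highest library was less than 1.1-fold above the lowest in 48 members, and 1.3-fold or more above it in 4 members, namely EIF4E1B, EIF3C, EIF3CL and EIF5A2, beside 20.3% of all genes tested. The 3 members other than EIF3C had means of 46.7, 118 and 290.3 reads, in the order EIF4E1B, EIF3CL and EIF5A2. Among members and genes with at least 1000 reads the share under 1.1-fold was 78.6% and 71.6%.

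**Figure D3:**
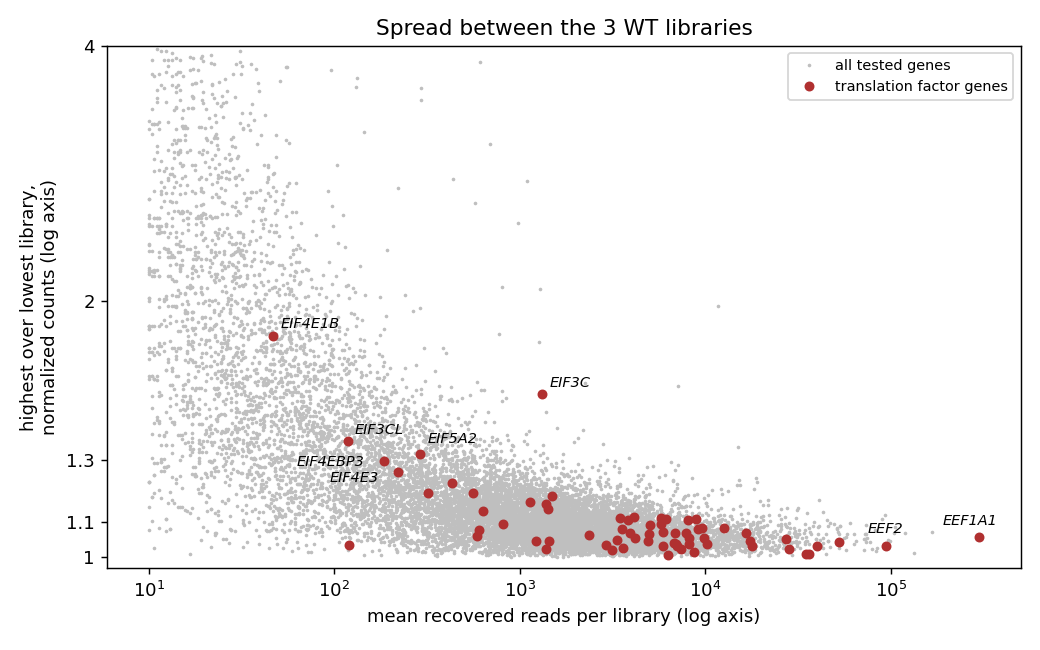
The horizontal axis gives mean recovered reads per library and the vertical axis the highest over the lowest library in normalized counts, both on log scales, with grey points for all tested genes and red points for translation factor genes. The red points lie mostly below 1.1 at high read counts, EIF3C stands above nearly all grey points of its level at 1.56, and 190 genes above the axis end of 4 and 4 genes with a library at 0 are not drawn.

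Genes that act with these factors were listed by role, and 41 of 42 were expressed. Of the 41 with enough reads to test, 20 differed between libraries against sampling, beside 41.9% of all genes tested. With the edgeR dispersion added 0 differed, beside 0.416% of all genes tested. At an unadjusted p under 0.05, 4 passed with the dispersion added, and the share of all genes at this threshold is not given. In the control of cap-dependent initiation, 11 genes ran from TSC1, a brake on mTOR, at 167 ± 8.79 to RHEB, the GTPase that activates mTOR, at 2493 ± 85.4 normalized counts per kb. MTOR itself stood at 455 ± 32.9 and LARP1, which binds pyrimidine starts, at 1998 ± 58.3 per kb. The ends of this range depended on the length used. Without length MKNK1 was lowest at 566 normalized counts and LARP1 highest at 14349. Per kb of all annotated exons MKNK1 was again lowest, at 70.1, and RHEB highest. Of these 11 genes, 7 differed against sampling.

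Of the 4 poly(A)-binding genes, PABPC1, the main cytoplasmic poly(A)-binding protein, was highest at 6976 ± 51.4 per kb and PAIP1, its partner, lowest at 890 ± 10.9. Per kb of all annotated exons PABPC4 was lowest instead, at 571 against 730 for PAIP1. In the integrated stress response, ATF4, the factor translated when eIF2 is phosphorylated, stood at 12647 ± 39.1 per kb, the highest of the 42 genes, and ASNS, the asparagine synthetase that ATF4 activates, lowest of the 6 at 265 ± 13.3. Without length PABPC1 was the highest of the 42, at 19958 normalized counts against 17946 for ATF4. Among 5 termination and recycling genes, ABCE1, the recycling ATPase, was highest at 1628 ± 63.5 per kb. Without length GSPT1 was highest instead, at 6713 normalized counts against 6326 for ABCE1. GSPT2, a paralog of the release factor partner GSPT1, was not expressed, at 2.71 ± 0.41 per kb against 940 ± 14.7 for GSPT1.

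Of the enzymes that build the special residues of elongation factors, DHPS, DOHH, DPH1, DPH2 and DPH5 were listed, and these were all expressed. DHPS, the first enzyme of hypusine formation on eIF5A, stood at 1712 ± 83.9 per kb and DOHH, the second, at 724 ± 33.1. The 3 listed enzymes of diphthamide on eEF2 ran from DPH5 at 542 ± 47.5 to DPH2 at 1068 ± 24.9 per kb. Among 4 reinitiation and subunit release genes, SBDS, which acts with EFL1 to release eIF6, was highest at 2170 ± 72.1, and MCTS1, a partner of DENR, lowest at 153 ± 3.31. Without length DENR was highest at 5651 normalized counts and EFL1 lowest at 897. Per kb of all annotated exons DENR and EFL1 stood at 1603 and 134, again highest and lowest. Of 7 other elongation and mitochondrial factors, TUFM, the mitochondrial counterpart of eEF1A, was highest at 5781 ± 246 and MTIF2, a mitochondrial initiation factor, lowest at 518 ± 12.5 per kb. Without length MTIF3 was lowest at 584 normalized counts, and per kb of all annotated exons GFM1 was lowest at 318.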

How the data were processed

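RNA-seq of 3 22Rv1 WT libraries was used. Paired-end reads were mapped by the authors with HISAT2 (build GRCh37, GENCODE gene models). HTSeq gave the counts per gene and DESeq2 the normalization. The release, the strandedness and the handling of reads with several places are not given in the sources used here. The deposited signal is thus the reads of a gene over the size factor of its library (1.27, 1.18 and 1.27), rounded. Whole reads were recovered from 100% of the values above 0 in each library, within rounding. Each file held 29000 rows, and 1976 neighbouring rows with identical reads were merged, 5 members among the genes affected. Symbols, positions and lengths came from GENCODE 44 lifted to GRCh37, and starts from RefSeq on GRCh38.p14. Tests on the recovered reads used edgeR 4.0.16 in R 4.3.3 (TMM sizes, trended dispersion with an intercept only) and scipy 1.17.1, and DESeq2 1.42.0 gave alternative size factors. Copies were sought with minimap2 2.31, at 98% identity over at least 50% of a transcript, and coding sequences were aligned with Biopython 1.88. The search listed no copy for EIF5A or EIF2S3, though EIF5AL1 and EIF2S3B match their coding sequences at 98.9% and 98.2%. For EEF1A1 the coding part is 1389 of the 3512 bases of its canonical transcript, so a copy of that part alone would be missed. Scripts were tested on simulated data.

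The members and gene lists were chosen with earlier results of these data known. By the rule for named genes, every library is given for the paralog pairs, the 10 members highest per kb, the 5 lowest expressed, members called with the dispersion added, and the 3 with the widest range among those with at least 100 reads. The alternatives were other lengths, library scalings and minimum counts, a pseudocount of 1, unmerged rows, other definitions of the start, and leaving out each replicate. The counts of genes with a start and of GENCODE starts, and the added dispersion with each replicate left out in turn, were chosen after seeing the data. Reads were not deduplicated by molecular identifiers here, so the tests against sampling cover counting error only. Some of the marker genes looked at are not reported here.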

Additional observations from a re-analysis of the deposited data

How the results depend on the processing

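The 38 members that differed between libraries against sampling became 1 with the edgeR dispersion added. Against sampling, 19 to 23 members were called when each replicate was left out, where fewer libraries were compared. Over all genes, 3950 of 14639 were called without replicate 1, 3332 of 14668 without replicate 2 and 3447 of 14646 without replicate 3. With the dispersion added and each replicate left out, 0 to 1 members were called, 0 of them without replicate 2 (EIF3C). The calls over all genes were then 39 of 14639 without replicate 1, 20 of 14668 without replicate 2 and 22 of 14646 without replicate 3. Against sampling alone, other scalings and minimum counts gave 37 or 38 members. All genes called were 6115 and 6144 of 14646 with the other scalings. They were 6676 of 17076 and 5599 of 12847 with the other minimum counts. The log2 ratio of EEF1A1 to EEF1A2 was 5.25 without length and 4.19 per kb of all annotated exons. The ratio turned for EIF4E to EIF4E2 (0.27 without length, 1.47 with all annotated exons), EIF4B to EIF4H (0.41 and 0.36) and EIF4EBP1 to EIF4EBP2 (-1.04 without length). Of 114 alternative values of the other 19 pairs, 82 moved by less than 1 SD, 27 by more and 5 turned. The 82 hold all 57 values that left out a replicate. Leaving out 1 of 3 libraries cannot move a mean by 1 SD, so these 57 were fixed in advance. The read share of the members was 2.16% without merging repeated rows. The share of starts with a pyrimidine run was 33.3% within 5 bases and 29.6% at the GENCODE canonical start. The mean levels of single members moved by less than 1 SD in 420 of 420 alternatives, which the settings largely fix, since each scaling was brought to a common overall level. Of the 420, 210 left out a replicate, which for the same reason as in the pairs could not move a mean by 1 SD. No paired analysis was possible because there is a single group, so replicate numbers pair no samples across groups. Counts cannot place reads shared by near-identical or overlapping genes, which limits EIF3C, EIF3CL, EIF3L, EIF5AL1, EIF2S3B, EIF4EBP3, EEF1AKMT4, EEF1E1, EIF6, EEF1G, EEF1B2 and EIF4A1, among others.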
